A study of Mus musculus with 56 samples.

Results

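The nuclear genes for the subunits of oxidative phosphorylation were followed in mouse kidney under inverted feeding. They were taken by symbol: genes starting with Ndufa, Ndufb, Ndufc, Ndufs, Ndufv, Uqcr, Cox4 to Cox8 or Atp5, with the 4 Sdh genes, Cyc1 and Cycs, leaving out the Ndufaf assembly factors. This gave 87 of the 17027 genes of the kidney table: 38 in complex I, 4 in complex II, 9 in complex III, 18 in complex IV, 17 in complex V, and Cycs alone. Ndufa4 and Ndufa4l2 were counted in complex IV. Kidneys came from C57BL/6J female mice of 9 weeks that ate for 7 days either only in the light phase (daytime-restricted feeding, DRF) or only in the dark phase (nighttime-restricted feeding, NRF, the control) under a cycle of 12 h light and 12 h dark. Tissue was taken every 4 h at 7 zeitgeber times (ZT, hours after lights on) from ZT0 to ZT24, with 4 mice in each of the 14 groups and 56 libraries in all.

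Complexes I to IV pass electrons from NADH and succinate to oxygen in the inner mitochondrial membrane, and cytochrome c (Cycs) carries them from complex III to complex IV. Complexes I, III and IV pump protons, and complex V (ATP synthase) uses the gradient to make ATP. The kidney is rich in mitochondria because its tubules, the proximal tubule above all, spend much ATP on reabsorption.

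Levels are given as CPM, read counts scaled to the effective library size, recovered from the deposited values. Effective library sizes were 24.8 to 28.9 M reads, and recovered reads were 22.3 to 24.7 M per library. Tests used log2(CPM + 1) in limma over 12130 genes with a mean CPM of at least 1, and a gene was called at a Benjamini-Hochberg adjusted p under 0.05. Of the 87 members, 80 were tested. Cox4i2 and Cox6a2 fell under the filter at mean levels of 0.764 and 0.722 CPM, Ndufa13, Ndufb4 and Uqcrc2 did not come out as whole reads, and Ndufb4b and Ndufb4c had no usable length. The 7 proximal tubule markers summed to between 9131 and 15046 CPM in the libraries, although Slc7a13 among them was at 0.403 to 6.97 CPM. The 6 fat markers together lay between 23.3 and 1413 CPM, with the highest sum in NRF ZT12 mouse 1 and Ucp1, Cidea, Adipoq, Plin1 and Cfd each at 0 in some libraries. Skeletal muscle markers were at or near 0, at most 0.452 CPM in sum. In whole tissue, fewer cells of a type and less RNA per cell cannot be told apart.

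The start regions of several members are shown, and the part of their motifs in the levels was not tested. RefSeq windows (GRCm38.p6, 250 bases before to 50 after the gene start) matched 70 of the 87 members. The 3 motifs searched, on both strands, were that of nuclear respiratory factor 1 (a palindrome, here called by the factor's name), CCGGAAG (ETS factors, among them GABPA) and AAGATGGCG (YY1). The last letters of CCGGAAG can be the first of AAGATGGCG. Of the 70 members, 5 held the first (7.14%), 17 the second (24.3%) and 7 the third. Of 27025 genes with a window, 290 held the first (1.07%), 2683 the second (9.93%) and 443 the third (1.64%). These 27025 include genes outside the kidney table, and no share was taken among genes expressed in kidney. The shares therefore cannot show whether the motifs are more frequent in the subunits than in other kidney genes. Shown for each complex is the member with a motif and the smallest adjusted p for the mean level difference described later, with the motif in capitals. These are Ndufs6 (chr13:73328433-73328474, minus strand), Sdhb (chr4:140961252-140961308, plus strand), Uqcrh (chr4:116075049-116075105, minus strand), Cox6b1 (chr7:30626111-30626167, minus strand) and Atp5j (chr16:84835006-84835089, minus strand).
Ndufs6: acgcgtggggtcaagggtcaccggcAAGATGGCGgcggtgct
Sdhb: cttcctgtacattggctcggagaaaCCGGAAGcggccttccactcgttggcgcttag
Uqcrh: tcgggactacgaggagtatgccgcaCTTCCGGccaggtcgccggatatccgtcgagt
Cox6b1: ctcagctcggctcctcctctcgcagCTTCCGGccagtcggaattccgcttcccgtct
Atp5j: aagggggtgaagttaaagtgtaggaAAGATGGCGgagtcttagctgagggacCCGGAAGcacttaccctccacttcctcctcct
The Uqcrh and Cox6b1 capitals are CCGGAAG read from the opposite strand. Atp5j held both the YY1 and the ETS letters. The Cycs window held none of the 3, which says only that these letters were not in it.

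The subunits were expressed at widely different levels. Per kilobase of merged exons, Cox8a, a small subunit of complex IV, was the highest tested member at 1174 ± 123 CPM per kb (SD, n = 56 libraries). Atp5b, the catalytic beta subunit of ATP synthase, led complex V at 774.8 ± 51.3 CPM per kb. Uqcrb led complex III at 380.2 ± 40.8 CPM per kb, and Ndufb9 led complex I at 257.2 ± 30.7 CPM per kb. The 4 genes of complex II lay within 1.58-fold of each other, from 125.9 CPM per kb for Sdhc to 199.1 CPM per kb for Sdha, the flavoprotein that oxidises succinate. Members of complex I spanned 26.2-fold, down to Ndufb2 at 9.80 CPM per kb. Because exons of all annotated transcripts were merged, a gene with long minor transcripts, such as Ndufb2 with 5628 bases, comes out low on this scale.

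Several subunits exist as isoforms that differ between tissues, and the kidney used the broadly expressed forms. Per length, Cox4i1 exceeded Cox4i2, known from lung, by 471 ± 202-fold, and Cox6a1 exceeded the heart and muscle form Cox6a2 by 1030 ± 557-fold (SD, n = 56 libraries). Cox6b1 exceeded the testis form Cox6b2 by 150.2 ± 28.5-fold, and Cox7a2 exceeded Cox7a1 by 10.5 ± 1.40-fold. Among the 3 genes that encode the same c-ring subunit of ATP synthase, Atp5g3 was 2.29 ± 0.18 times Atp5g1 and 1.65 ± 0.12 times Atp5g2.

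Cox8b, the heart, muscle and brown fat form of subunit 8, differed between libraries more than the other isoforms. It ranged from 0.390 to 13.96 CPM with a median of 3.56 CPM. The highest library was NRF ZT12 mouse 1, where the 6 fat markers summed to 1413 CPM, and the next was DRF ZT20 mouse 4 at 8.73 CPM, where they summed to 459.7 CPM. The order was not the same throughout. NRF ZT16 mouse 1 had a fat sum of 893 CPM with Cox8b at 3.73 CPM, near the median. DRF ZT4 mouse 1 had Cox8b at 7.63 CPM with a fat sum of 70.4 CPM. The sum pools markers of brown and white fat, and these differed between the libraries. NRF ZT16 mouse 1 had Adipoq at 101.8 CPM and Ucp1 at 0.272 CPM. DRF ZT4 mouse 1 had Ucp1 at 4.10 CPM, against a median of 0.0722 CPM over all libraries. Cox8b did not follow Ucp1 throughout either, since NRF ZT24 mouse 3 had Cox8b at 5.11 CPM with Ucp1 at 0. Across the 56 libraries Cox8b and the fat sum had r = 0.61 on the log2 scale, whereas Cox7a1 had r = -0.02. These are descriptions over libraries that share their tissue dissection, and the part of fat in the Cox8b level was not tested.

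**Figure D1:**
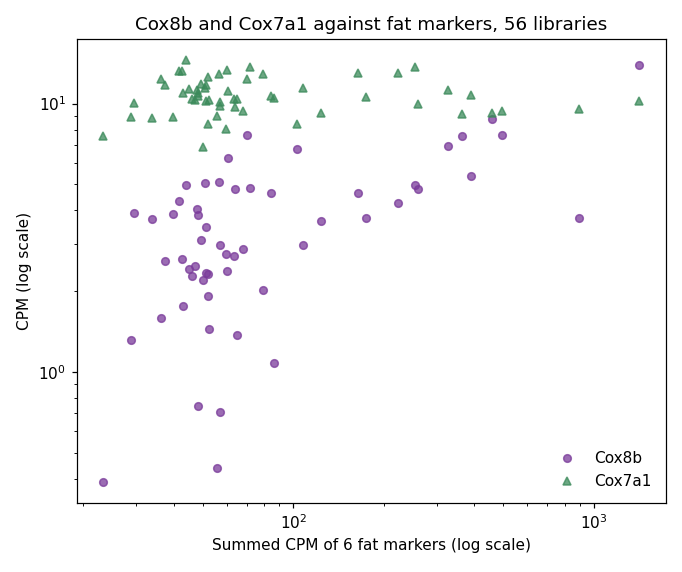
Level of Cox8b (circles) and Cox7a1 (triangles) in CPM against the summed CPM of 6 fat markers, both axes on a log scale, 1 point for each of 56 libraries. Cox8b reaches 13.96 CPM in the library with the highest fat sum of 1413 CPM, whereas Cox7a1 stays between 6.89 and 14.5 CPM.

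To determine whether inverted feeding changed the overall level of the subunits, the mesor (the mean over the day, ZT0 and ZT24 sharing 1 weight) was compared. All 80 tested members had a higher estimate under DRF, and 52 of 80 (65.0%) passed the test, all higher, against 9.77% of all genes called and 5.17% called higher. The differences were small. Their median was 0.12 on the log2 scale, against 0.00 over all genes, and the range was 0.04 to 0.22. Complex I gave 22 of 34, complex III 5 of 8, complex IV 12 of 16 and complex V 12 of 17 members that rose, and Cycs rose as well. None of the 4 complex II genes passed, and 1 of them, Sdhb, had an unadjusted p under 0.05 in limma. Sdha differed by 0.04 ± 0.03 (log2, SE) and Sdhb by 0.10 ± 0.04. Without the ZT8 mice the count was 21, and without the ZT12 mice 26. Leaving out any single library gave 38 to 64. Leaving out 1 replicate number from every group gave 17, 23, 7 and 60 for numbers 1 to 4.

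Among the members that rose, Ndufa5, an accessory subunit of complex I, had a mesor difference of 0.22 ± 0.04 (log2, SE), a fold of 1.16 (adjusted p = 0.000526 by limma). Uqcrb, which helps hold complex III together, rose by 0.16 ± 0.03 (adjusted p = 0.000396 by limma), and Uqcrh, the hinge protein of complex III, by 0.20 ± 0.04. Cox7a2l, counted here in complex IV, rose by 0.12 ± 0.02 with the smallest adjusted p of the set (0.00015 by limma). Atp5j, coupling factor 6 of ATP synthase, rose by 0.15 ± 0.03 (adjusted p = 0.00237 by limma). Atp5b itself differed by 0.06 ± 0.03 and did not pass.

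**Figure D2:**
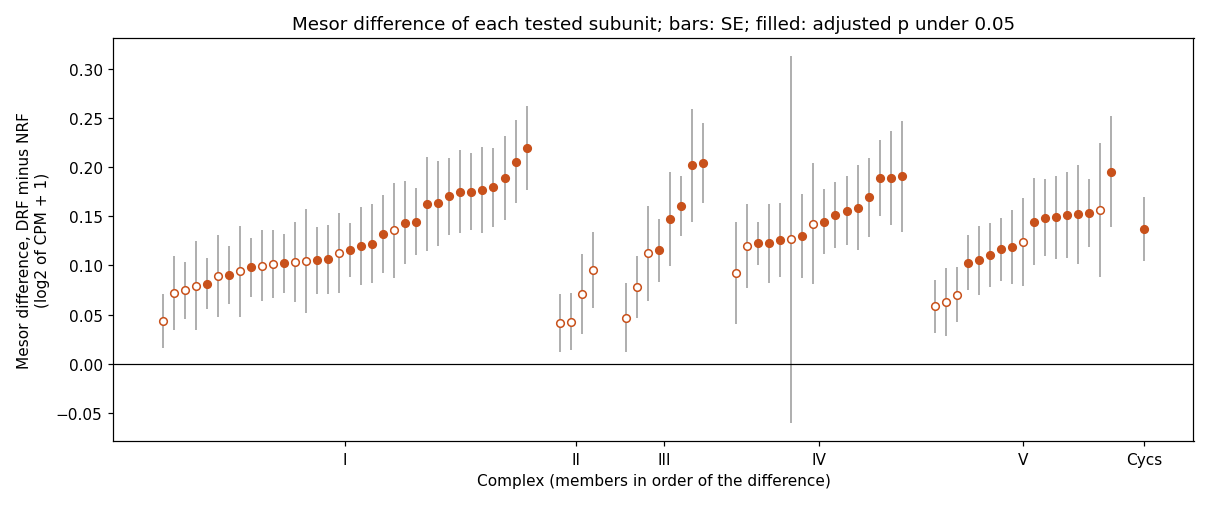
Mesor difference of each of the 80 tested subunits (DRF minus NRF, log2 of CPM + 1), in order within each complex, with SE bars and filled points for an adjusted p under 0.05. All points lie above 0, 52 are filled, and no complex II point is.

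Other short transcripts moved with the subunits. Most subunit mRNAs are short, and 47 of the 80 tested members had a principal transcript of at most 1000 bases. The median centred level of the members in a library followed that of 219 abundant transcripts of at most 1000 bases from other genes, with r = 0.95 over 56 libraries, and that of 62 cytosolic ribosomal protein genes, with r = 0.86. Among the 219 short transcripts, 69 were called higher and 3 lower under DRF in mesor (median 0.10), and among the 62 ribosomal protein genes 46 rose and 0 fell by limma (median 0.12). The lists overlap, and the 182 short transcripts that are not ribosomal gave 40 higher and 3 lower (median 0.08). Of 885 transcripts of at least 5000 bases, 20 were called higher and 44 lower, where 627 and 558 of all 12130 genes were. The share called lower was thus near that of all genes. Members with transcripts of at most 1000 bases had a median difference of 0.15, and those over 2000 bases of 0.09.

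The mesor count was therefore also taken with the short-transcript level of each library as a covariate, a choice made after the data were seen. With it, 19 of 80 members were called, 17.0% of all genes were called, and the members' median difference was 0.03. The 19 included Ndufa5, Ndufs6, Uqcrb, Uqcrh, Cox6b1, Cox7a2l, Atp5j and Cycs. They fell to 8 in complex I, 2 in complex III, 7 in complex IV, 1 in complex V and Cycs, with 0 of 4 in complex II by limma. The covariate rests on transcripts that themselves differed between regimens, so the share of the difference that belongs to transcript length and the share that belongs to feeding cannot be told apart.

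**Figure D3:**
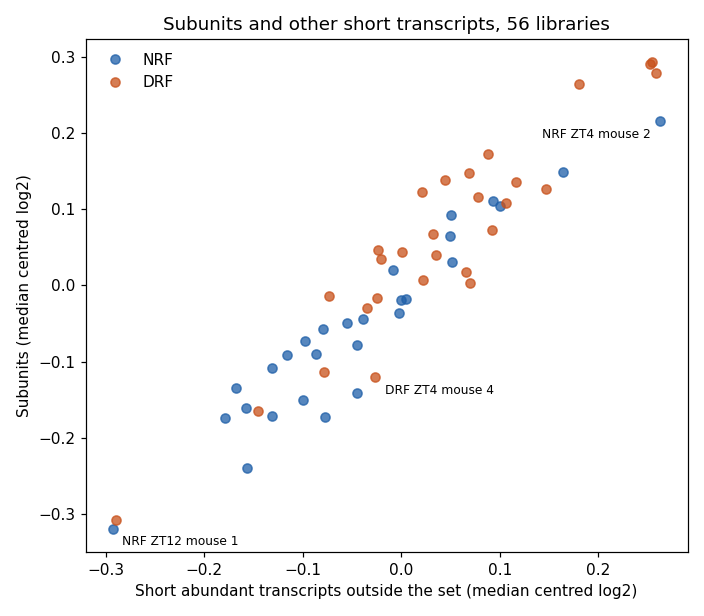
Median centred log2 level of the 80 tested subunits against that of 219 short abundant transcripts from other genes, 1 point for each of 56 libraries, coloured by regimen. The points follow a line (r = 0.95), and libraries that lie apart from their groups are labelled. For short transcripts and subunits, NRF ZT4 mouse 2 is at 0.26 and 0.22, and NRF ZT12 mouse 1 at -0.29 and -0.32. DRF ZT4 mouse 4 is at -0.03 and -0.12, lower in the subunits than in the short transcripts.

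By time of day, the regimens differed most often at ZT4, where 43 of 80 members rose under DRF, against 17.4% of all genes called higher, and 0 fell by limma, with all but 1 estimate above 0. The median difference was 0.27 on the log2 scale, against 0.01 over all genes. This was not particular to the subunits. Of the 62 ribosomal protein genes 43 rose and 0 fell at ZT4 by limma (median 0.26). Of the 219 short transcripts 95 rose and 3 fell (median 0.23). By complex, 20 of 34 members rose in complex I, 5 of 8 in complex III, 7 of 16 in complex IV and 9 of 17 in complex V, and in complex II only Sdhb did. The sum over the tested members was 16370 ± 1984 CPM per kb under DRF and 13951 ± 1995 under NRF (SD, n = 4 mice).

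For none of the 80 members did every DRF mouse lie above every NRF mouse at ZT4, where 10.7% of all genes did so. Ndufa5 was at 108.0, 132.4, 139.3 and 139.9 CPM in the 4 DRF mice and at 76.9, 84.0, 87.9 and 124.4 CPM in the 4 NRF mice. The 3 higher DRF values lay above every NRF value, whereas the lowest DRF mouse lay under the highest NRF mouse. Its difference was 0.49 ± 0.11 (log2, SE, adjusted p = 0.000519 by limma). DRF mouse 4 had a median member level of -0.12 on the centred log2 scale, with its 3 group mates between 0.28 and 0.29, and NRF mouse 2 was at 0.22. Without DRF mouse 4 the count was 61, without NRF mouse 2 it was 59, and without any other single mouse it was 18 (NRF mouse 4) to 26. Leaving out replicate number 3 from every group gave 0 by limma, number 1 gave 9, and numbers 2 and 4 gave 49 and 47. DRF mouse 4 also had a collecting duct marker sum of 944 CPM, with 442 to 614 CPM in the NRF mice, and NRF mouse 4 a fat marker sum of 389 CPM, with 37.3 to 102.6 CPM in the DRF mice. Over whole groups at ZT4, the immune cell sum was 157 to 309 CPM under DRF and 376 to 519 CPM under NRF. The adrenal sum was 6.71 to 8.89 against 9.71 to 10.6 CPM, and the blood marker Alas2 4.27 to 10.9 against 11.1 to 24.8 CPM. None of these overlapped. Over all libraries the immune sum was mostly Cd74, with a median of 306 CPM against 17.9 CPM for Ptprc. The adrenal sum was mostly Star (median 5.69 CPM) and Akr1b7 (2.94 CPM), with Cyp11a1 at 0.15 CPM. The part of these markers in the count was not tested. With the short-transcript covariate 7 members were called at ZT4, where 36.7% of all genes were.

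At the other times fewer members passed the test. At ZT8 4 of 80 rose, at ZT12 9 rose, and at ZT16 3 rose, with 9.87%, 13.1% and 3.77% of all genes called higher. At ZT8, however, every DRF mouse lay above every NRF mouse for 44 of 80 members, where 11.8% of all genes did so, and at ZT12 for 32 of 80, where 13.8% did. This was not particular to the subunits. The median centred level of the short transcripts at ZT8 was -0.02 to 0.11 under DRF and -0.13 to -0.04 under NRF. That of the ribosomal protein genes was 0.02 to 0.14 against -0.11 to -0.03, also without overlap. At ZT8 the collecting duct sum was 748 to 863 CPM under DRF and 478 to 695 CPM under NRF, and Alas2 was 14.7 to 25.01 against 2.88 to 12.5 CPM, without overlap, and their part was not tested. Uqcrh at ZT8 was at 204.3, 210.2, 228.2 and 230.0 CPM under DRF and at 165.2, 174.8, 179.9 and 188.8 CPM under NRF. The groups did not overlap, and the difference was 0.30 ± 0.10 (log2, SE, adjusted p = 0.0355 by limma). These counts rest on single mice. At ZT8 the count was 0 without NRF mouse 4, and at ZT12 it was 1 without NRF mouse 1, whose median member level was -0.32, and 2 without DRF mouse 1 or 4. At ZT16 it was 8 without NRF mouse 1 and 1 without NRF mouse 2. At ZT0 4 members rose and Cycs fell, with 11% of all genes called higher and 10.1% lower, and without DRF mouse 1 the count was 1. At ZT20 it was 5 without DRF mouse 1 or 2. At ZT20 and ZT24 Cox7a2l was the only member called, higher at both times, where 9.76% and 8.48% of all genes were.

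**Figure D4:**
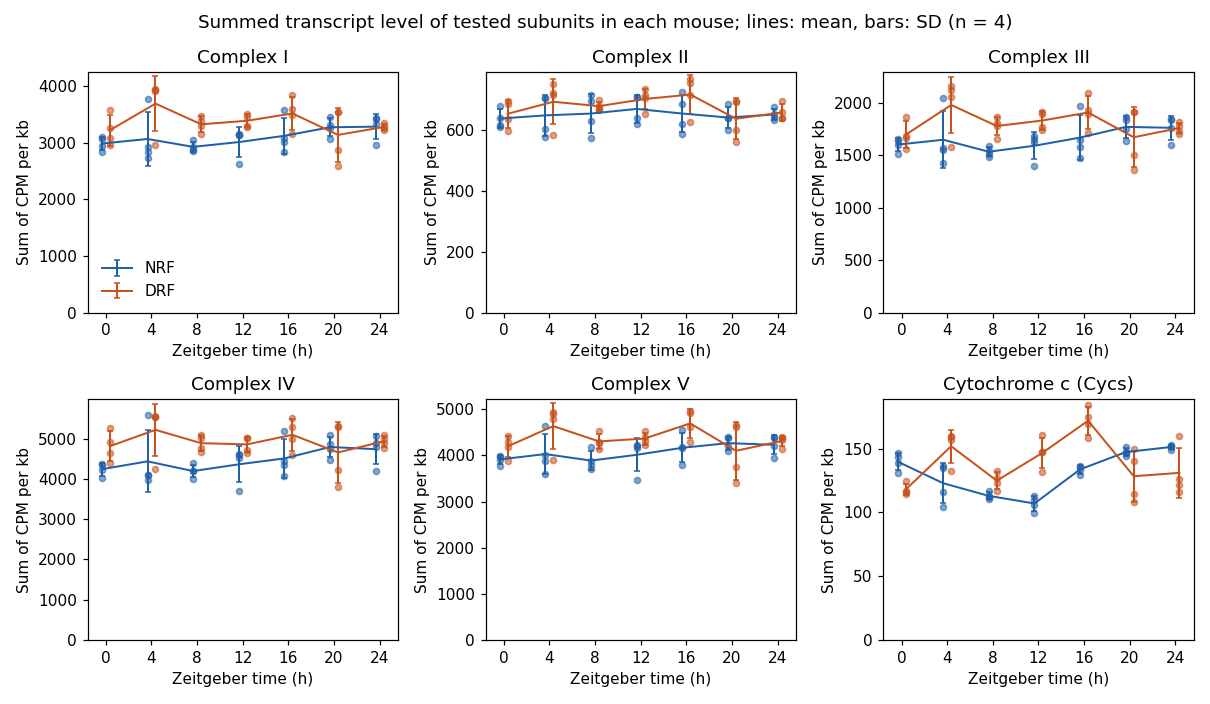
Summed CPM per kb of the tested members of each complex, and of Cycs, against zeitgeber time, with 1 point for each mouse, lines through group means and SD bars (n = 4). For complexes I, III, IV and V the DRF means exceed the NRF means from ZT0 to ZT16, and at ZT20 the DRF means are lower. Cycs follows its own course.

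To determine whether subunit levels oscillated, a 24-h cosine was fitted within each regimen. Under NRF 22 of 80 members (27.5%) were called, where 54.6% of all genes were. Under DRF 9 of 80 (11.3%) were called, where 40.8% were. Their median amplitude (log2) was 0.08 for NRF and 0.07 for DRF, and over all genes it was 0.13 and 0.11. Of the 22 under NRF, 19 peaked between ZT18 and ZT24, in the later dark phase. Of the 9 under DRF, 6 peaked between ZT6 and ZT12. The rhythm differed between regimens for 20 of 80 members, where 49.9% of all genes did. These counts moved with the mice used. Without ZT24 they were 11 under NRF, 3 under DRF and 10 for the difference, and without 1 replicate number they were 6 to 51, 0 to 14 and 6 to 34. With the short-transcript covariate 41 members were called under NRF, 33 under DRF and 11 for the difference, where 61.5%, 36.9% and 50.8% of all genes were, and the peaks of the 33 all lay between ZT12 and ZT24, so the peak time under DRF depended on it.

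Only 4 members were called under both regimens, where 26.7% of all genes were. Ndufb10 peaked at 20.6 ± 1.0 h under NRF and 9.30 ± 1.12 h under DRF (SE), a shift of -11.3 ± 1.5 h, and its rhythm differed between regimens (adjusted p = 0.000275 by limma). Ndufa11, a membrane subunit of complex I, shifted by 10.1 ± 1.8 h. Ndufa4l2, a hypoxia-inducible relative of Ndufa4, shifted by 4.97 ± 1.45 h. Ndufv3, a subunit of the NADH-binding module, peaked at 2.23 ± 0.86 h under NRF and 1.59 ± 1.09 h under DRF, and the test of a difference gave an adjusted p = 0.876 by limma, with a shift of -0.63 ± 1.38 h.

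A 12-h component was called for 17 of 80 members under DRF, where 30.7% of all genes were, and for 0 of 80 under NRF by limma, where 1.24% of all genes were and 0 members had an unadjusted p under 0.05. Without 1 replicate number the count under DRF was 2 (number 3) to 20. The 17 comprised 10 in complex I, 4 in complex V, and Uqcrb, Cox5a and Cycs. Their first peaks lay close together, between 3.38 and 3.94 h, so the other fell 12 h later near ZT16. The largest amplitudes were those of Cycs at 0.21 ± 0.04 and Ndufa5 at 0.21 ± 0.04 (log2, SE).

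Cycs had the clearest time course of the set. Under NRF it was at 446.1, 473.1, 487.2 and 497.8 CPM in the 4 mice at ZT0 and at 337.8, 359.8, 374.1 and 384.5 CPM at ZT12. The values at ZT12 were all under those at ZT0, and at ZT24 they were back at 506.1 to 520.1 CPM. Its 24-h amplitude under NRF was 0.24 ± 0.03 (log2, SE) with a peak at 21.5 ± 0.4 h (adjusted p = 7.5e-08 by limma). Under DRF it was at 388.7 to 423.0 CPM at ZT0, at 450.7 to 543.1 CPM at ZT4, at 397.1 to 449.9 CPM at ZT8 and at 539.4 to 628.1 CPM at ZT16. The DRF values at ZT16 were all above the NRF values of 438.9 to 464.6 CPM, and those at ZT0 were all below the NRF values. At ZT24, the same clock time as ZT0, the groups overlapped and Cycs was not called. There the DRF mice were at 116.3 to 159.9 CPM per kb and the NRF mice at 148.7 to 152.8 CPM per kb. No 24-h rhythm of Cycs was called under DRF (amplitude 0.14, log2). The differences were 0.45 ± 0.08 at ZT12, 0.36 ± 0.08 at ZT16 and -0.25 ± 0.08 at ZT0 (log2, SE). The rhythm differed between regimens (adjusted p = 2.2e-05 by limma), and the call remained with the short-transcript covariate.

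Cox7a2l peaked in the light phase under NRF, whereas 19 of the 22 rhythmic subunits peaked late in the dark phase. It was lowest at ZT0, ZT20 and ZT24, with ZT20 values of 111.1, 113.5, 114.6 and 118.5 CPM, and it was higher at ZT8, with 132.5, 133.4, 133.8 and 142.9 CPM. No ZT20 value reached a ZT8 value. Its peak was at 10.7 ± 0.6 h with an amplitude of 0.14 ± 0.02 (log2, SE, adjusted p = 2.5e-06 by limma). Under DRF it lay between 122.0 and 151.6 CPM at all times and no 24-h rhythm was called (amplitude 0.02 ± 0.02). At ZT20 the DRF mice were at 134.0, 134.5, 139.2 and 144.7 CPM, all above the NRF mice.

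**Figure D5:**
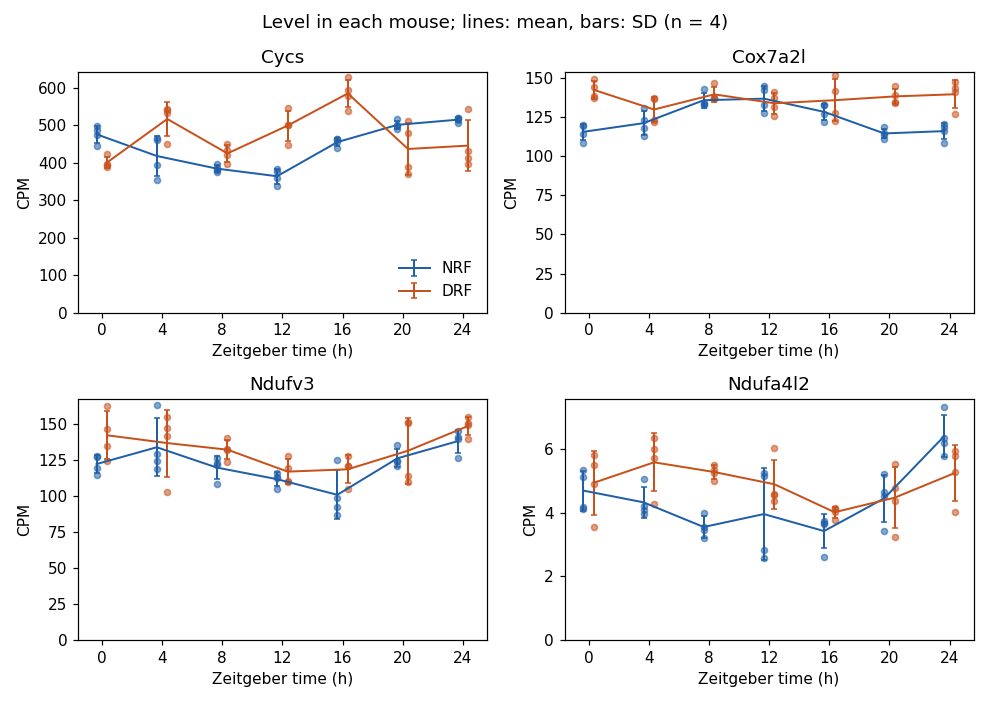
Level in CPM of Cycs, Cox7a2l, Ndufv3 and Ndufa4l2 against zeitgeber time under NRF and DRF, with 1 point for each mouse, lines through group means and SD bars (n = 4). Cycs falls to ZT12 under NRF and has high points at ZT4 and ZT16 under DRF, Cox7a2l is low around ZT20 to ZT24 under NRF alone, and Ndufv3 has a similar course in both.

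Other genes of the pathway were read from lists. Of 38 tested assembly factors for the complexes, 19 rose under DRF at ZT4, where 17.4% of all genes did, and 0 fell by limma. At ZT12 19 rose, where 13.1% of all genes did, whereas at ZT0 2 rose and 8 fell, where 11% and 10.1% did, and 11 fell at ZT20 and 9 at ZT24, where 11.6% and 8.99% of all genes fell. In mesor 3 rose (Sdhaf1, Coa6 and Uqcc2), where 5.17% of all genes did. Ndufaf4, a complex I assembly factor, differed at ZT4 by 0.94 ± 0.08 (log2, SE), more than any subunit. Of 14 tested genes of the TCA cycle, which supplies NADH and succinate, 4 rose at ZT4 (Fh1, Mdh2, Pdhb and Idh3a), against 17.4% of all genes. Only Fh1 also rose in mesor, against 5.17% of all genes. At ZT0 1 rose and 3 fell, where 11% and 10.1% of all genes did.

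Of 12 tested regulators of mitochondrial biogenesis, 1 rose and 3 fell at ZT4, where 17.4% of all genes rose and 14.5% fell. Their share called, 4 of 12, was near that of all genes. The coactivator Ppargc1a was at 91.5 to 106.3 CPM in the 4 DRF mice and at 116.3 to 140.3 CPM in the 4 NRF mice, which did not overlap, a difference of -0.39 ± 0.11 (log2, SE). Ppargc1b fell by 0.49 and the nuclear receptor Esrrg fell by 0.47 on the log2 scale, whereas Pprc1 rose by 0.55. At ZT12 the order of ZT4 held for Ppargc1b, at 19.98 to 29.25 CPM under DRF and 29.59 to 38.99 CPM under NRF. It held there for Pprc1 too, at 20.43 to 24.88 CPM under DRF and 11.99 to 13.49 CPM under NRF. Neither overlapped, whereas the groups overlapped for Ppargc1a. In the following pairs of gene and time, picked from all times, the order was opposite. Ppargc1a at ZT16 was at 144.7 to 199.6 CPM under DRF and 97.7 to 141.5 CPM under NRF, Ppargc1b at ZT20 at 42.0 to 55.1 against 31.1 to 33.2 CPM, and Pprc1 at ZT16 at 12.83 to 15.998 against 19.8 to 23.1 CPM, none of which overlapped. The 13 subunits encoded by the mitochondrial genome were not analysed here.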

How the data were processed

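Poly(A) RNA of 56 kidneys had been sequenced as paired reads. The submitters' processing notes name HISAT2, Bowtie2, RSEM, mm10 and GRCm38.p6, and which aligner served this table is not given in the sources used here. The authors deposited 1 table of normalized values, here classed as a score, described as TPM. The values behave as log2(CPM + 1) divided by gene length and rescaled, with library sums of 999145 to 999753. Reads were recovered by inverting this with GENCODE exon lengths: 15394 of 17027 genes (90.4%) and 99.0% of their values above 0 came out whole within 0.05 reads (with a relative tolerance of 1e-06). Recovered reads ran from 22.3 to 24.7 M per library. Gene symbols came from RefSeq for 16929 of the genes.

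log2(CPM + 1) was tested in limma 3.58.1 (R 4.3.3), since the table holds no deposited counts, across 12130 genes, in place of the log2(TPM + 1) named for it. Regimens were compared at each ZT and in mesor by group means, 24-h and 12-h rhythms by cosines within regimen, and differential rhythm by the interaction, with Benjamini-Hochberg adjustment. The fits were also run on simulated data in which each gene varied independently. The members here moved together across libraries, so that run cannot show how the fits behave in that case. P-values of level differences set them against the spread between mice within groups. Those of rhythms set them against the residual around the cosine fit. One column carried a number that no title has and entered its group without a number. Members, lists and motifs were chosen with earlier results of these data known. Genes named were the highest and lowest per complex, isoform sets, all complex II genes and Cycs, members under the filter, and the best called member per complex and comparison. Alternatives were TPM, median-of-ratios scaling, the deposited values, a pseudocount of 0.1, no filter or a mean CPM of at least 10, a replicate block, leaving out ZT24, replicates, libraries or time points, and a short-transcript covariate.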

Additional observations from a re-analysis of the deposited data

Results flagged for a closer look

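In the 14 groups of 4 mice, the median centred log2 levels of complexes I to V and of all members, 84 sets of 4 values, were searched for a mouse whose gap to the nearest of the others exceeded Dixon's 95% critical share of the group's range, and 10 were found, where chance gives about 1 in 20 sets. They are not independent, since the complexes share libraries. DRF ZT4 mouse 4 stood low in complex I (-0.11), III (-0.13), IV (-0.12) and V (-0.12) and over all members (-0.12), with its 3 group mates between 0.28 and 0.29 over all members. NRF ZT12 mouse 1 stood low in complex I (-0.32), IV (-0.33) and V (-0.33) and over all members (-0.32), with the others between -0.04 and -0.02. This library also had the highest fat marker sum, 1413 CPM. NRF ZT4 mouse 2 stood high in complex IV (0.25), with the others between -0.26 and -0.18. No complex II median stood apart.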

How the results depend on the processing

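Counts of members called are given for 80 tested members. Median-of-ratios scaling, a pseudocount of 0.1 and both filters moved no count by more than 1.5 times. TPM moved the library medians of all genes by -0.16 to 0.14 (log2) and gave 11 members at ZT0, 15 at ZT8, 9 at ZT16, 2 at ZT20, 4 at ZT24 and 14 for the 24-h rhythm under DRF. The deposited values gave 2 at ZT20. Leaving out ZT24 gave 5 at ZT12, 11 and 3 for the 24-h rhythm under NRF and DRF, and 10 for the differential rhythm. Added after the data were seen, leaving out ZT8 or ZT12 gave 21 and 26 for the mesor, and the short-transcript covariate gave 15 at ZT0, 7 at ZT4, 8 at ZT8, 10 at ZT16, 7 at ZT20, 9 at ZT24, 19 for the mesor, 41 and 33 for the 24-h rhythm under NRF and DRF, and 11 for the differential rhythm. The cause of these moves was not tested. These counts are given without direction, and here without the share of all genes called under each setting. They show how far a count moved and do not set the members against other genes. Leaving out a replicate number or 1 library gave 1 to 8 at ZT0, 0 to 61 at ZT4, 0 to 5 at ZT8, 1 to 9 at ZT12, 0 to 11 at ZT16, 1 to 5 at ZT20, 1 to 2 at ZT24, 7 to 64 for the mesor, 6 to 51 and 0 to 14 for the 24-h rhythm under NRF and DRF, 2 to 20 for the 12-h component under DRF, and 6 to 34 for the differential rhythm. The 12-h component under NRF stayed at 0. With the replicate block the mesor gave 47 and ZT4 43. Same-numbered mice did not deviate together (mean r = 0.01 over 351 pairs, against 0.00 over 1105 others), so the number is only a name. Of 1081 values of named members under alternatives, 945 kept direction and call, 136 lost the call and 0 reversed.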
